A study of Homo sapiens with 39 samples.

Results

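BLNK, TP53INP1, CCNG2, PPFIBP2 and RTN2 are 5 genes known to be held down by estrogen, followed here among the 46706 gene symbols of an expression table of HCC1428-LTED cells. The genes were selected on their higher level with estrogen receptor ligands than with vehicle, so values against vehicle are given as a description without a test. Differences between ligands contrast ligand groups only and were tested, with the vehicle libraries entering the shared estimate of the spread. The selection used these ligand libraries too, so counts of calls beside the share over all genes are a description, not independent support. HCC1428-LTED is a human breast cancer line adapted to long-term estrogen deprivation. All 13 groups came from this line, grown in medium with charcoal-stripped serum and exposed for 24 hours, and each group holds 3 libraries (39 in all). The vehicle group received DMSO. The other groups received fulvestrant, SAR439859, GDC-0810, AZD9496, GDC-SAR or AZD-SAR, each at 30 nM and at 300 nM. The labels describe both SAR compounds as hybrids that carry the side chain of SAR439859, GDC-SAR on the scaffold of GDC-0810 and AZD-SAR on that of AZD9496. Nothing in the labels says that libraries came from separate cultures, so the spread may be technical, and the series text speaks of duplicates where the labels give 3 libraries.

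The estrogen receptor is a ligand-activated transcription factor. Bound to estrogen it switches on growth genes in luminal breast cells and, at other genes, lowers transcription. Ligands that block or degrade the receptor can undo both actions, so genes of the lowered class are used as a readout of receptor activity. No group here is labelled as given estrogen, so lowering by estrogen was not observed, and receptor activity itself was not measured. CCNG2 encodes cyclin G2, an unusual cyclin linked to cell cycle arrest, and TP53INP1 encodes a stress protein that acts with p53 and in autophagy. BLNK encodes an adaptor that couples the kinase SYK to downstream signalling and is best known in B cells. PPFIBP2 encodes liprin-beta-2, a scaffold protein of the liprin family, and RTN2 encodes reticulon 2, a membrane protein that shapes the endoplasmic reticulum.

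All 5 genes are protein coding in GENCODE version 29 (GRCh38). CCNG2 lies on the plus strand of chromosome 4 from 77157151 to 77433388, and PPFIBP2 on the plus strand of chromosome 11 from 7513298 to 7657127. BLNK lies on the minus strand of chromosome 10 from 96191702 to 96271587, and RTN2 on the minus strand of chromosome 19 from 45485289 to 45497061. RefSeq promoter windows were found for 4 of the 5 genes. PPFIBP2 had 5 windows and RTN2 had 2, and only the window nearest the outer end of the gene was searched. TP53INP1 had no entry. The stretches printed here are those upstream of the start that hold no annotated exon, for the genes whose stretch was at least 100 bases, to show how far their upstream letters differ. They are chr4:77156957-77157150 (plus strand) for CCNG2, chr10:96271588-96271819 (minus strand) for BLNK and chr19:45497062-45497230 (minus strand) for RTN2, in build GRCh38.p14, written 5′ to 3′ on the gene's strand. Capitals mark matches on either strand to the GC box (GGGCGG) or to GGTCA, a single arm of the estrogen response element.
CCNG2: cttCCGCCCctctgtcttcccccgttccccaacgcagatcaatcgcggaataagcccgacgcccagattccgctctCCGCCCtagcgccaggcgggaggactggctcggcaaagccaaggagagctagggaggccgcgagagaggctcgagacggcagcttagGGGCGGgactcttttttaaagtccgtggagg
BLNK: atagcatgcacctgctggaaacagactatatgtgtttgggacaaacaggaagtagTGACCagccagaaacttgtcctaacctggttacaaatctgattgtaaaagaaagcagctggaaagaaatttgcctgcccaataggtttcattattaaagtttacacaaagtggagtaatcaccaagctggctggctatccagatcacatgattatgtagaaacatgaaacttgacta
RTN2: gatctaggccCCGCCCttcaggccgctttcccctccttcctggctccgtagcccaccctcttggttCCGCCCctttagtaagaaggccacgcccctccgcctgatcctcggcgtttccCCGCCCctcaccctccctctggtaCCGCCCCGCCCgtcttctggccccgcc

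These upstream stretches were of different kinds. CCNG2 held 3 GC boxes in the printed stretch and RTN2 held 5, in windows of 64.7% and 71.7% G and C over 300 bases. The BLNK window had 42.7% G and C, no GC box and a single GGTCA match. Among 35116 promoter windows of the same length the median was 58.7%, 44.95% held a GC box and 37.4% held GGTCA. The complete palindromic estrogen response element, which contains GGTCA on both strands, was in none of the 4 windows and in 0.0570% of all windows. Of 3 further motifs searched on both strands, GTAAACA (forkhead), TGAGTCA (AP-1) and TATAAA, none was in the 4 windows, and they were in 3.42%, 4.95% and 11.5% of all windows.

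Values are TPM, transcripts per 1000000 after scaling by gene length. Each library sums to that total, so sequencing depth is unknown. Libraries listed from 15818 to 26756 genes above 0. The library with the fewest was SAR439859 30 nM replicate 3, and the ligand differences averaged over both doses that use it are given with and without it. Of the calls at a single dose, leaving it out ended that of CCNG2 between SAR439859 and AZD9496 at 30 nM (log2 0.52, adjusted p = 0.129). A single gene took from 8.45% to 18.8% of a library. That gene was RN7SL1 in the 3 DMSO libraries (10.7% to 11.5%) and SNORA76C (30 libraries) or MALAT1 (6 libraries) with ligands. Comparisons with DMSO carry this difference in the dominant RNA, and its part in them was not tested. Luminal markers were present in every library (8 of 8 measured, ESR1 from 250.1 to 568 TPM). The 8 B-cell markers, examined because BLNK is best known in B cells, summed to between 3.17 and 4.03 TPM with DMSO and between 0 and 6.79 TPM with ligands, and MS4A1 was listed at 0 in 31 libraries. The 10 stromal, endothelial and immune markers summed to between 14.7 and 17.9 TPM with DMSO and between 14.3 and 31.1 with ligands, carried by COL1A1 and CD68. DMSO replicates 2 and 3 share index sequences with treated libraries, no pool is labelled, and a pool difference cannot be told apart from DMSO. In a bulk sample, fewer cells of a type and less RNA per cell cannot be told apart.

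CCNG2, TP53INP1, BLNK and PPFIBP2 were high with fulvestrant, SAR439859 and both hybrids and lower with GDC-0810 and AZD9496. Averaged over both doses, the 4 genes were lower by 0.52 to 1.53 log2 units with GDC-0810 or AZD9496 than with fulvestrant, and each of these differences passed the test. RTN2 had the hybrids at the top by mean over both doses, with GDC-0810 and AZD9496 lowest here too. The lead of the hybrids over fulvestrant and SAR439859 for RTN2 was not called. The test was limma on log2(TPM + 1) in 1 model of the 13 group means, with Benjamini-Hochberg adjustment over the 14404 genes with a mean of at least 1 TPM and a call at adjusted p below 0.05. An F test asked first whether the 6 ligands differed at all. At 30 nM the adjusted p was 0.00477 for CCNG2, 2.1e-07 for TP53INP1, 8.6e-04 for BLNK, 2.0e-06 for PPFIBP2 and 0.225 for RTN2, where 5.11% of all tested genes were called. At 300 nM it was 0.00591, 2.0e-06, 2.8e-04, 0.00101 and 0.0396 in the same order, where 4.91% were called. The RTN2 call at 300 nM was lost without the expression filter (adjusted p = 0.0837), with only the libraries compared (0.0778) and when some single libraries were left out (up to 0.145, without AZD9496 300 nM replicate 2). The CCNG2 call at 300 nM was lost with only the libraries compared (adjusted p = 0.0709).

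**Figure D1:**
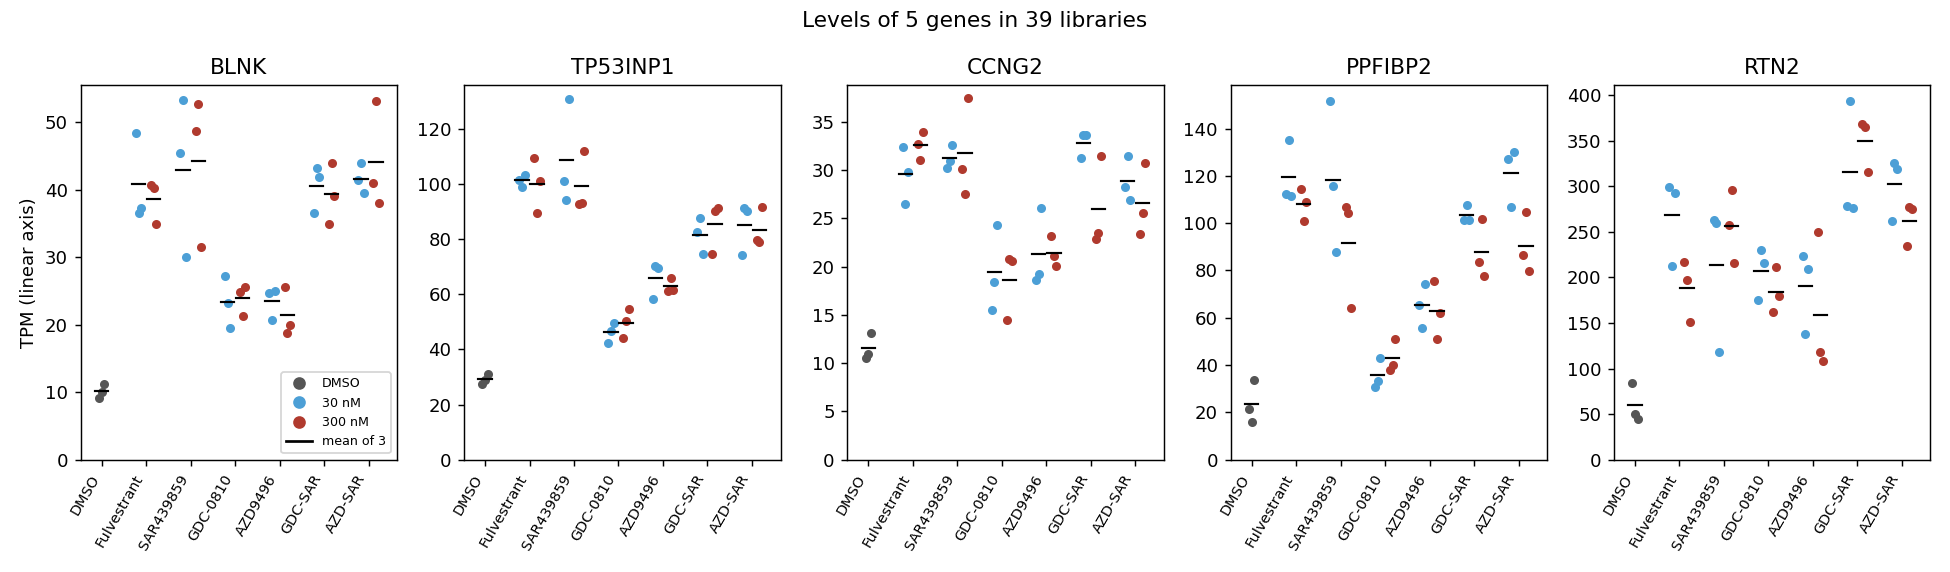
Level of each gene in TPM (vertical axes, linear, starting at 0) in all 39 libraries by ligand; points are libraries (grey DMSO, blue 30 nM, red 300 nM) and bars are means of 3. BLNK, TP53INP1, CCNG2 and PPFIBP2 sit lower with GDC-0810 and AZD9496 than with most libraries of the other 4 ligands, and RTN2 is highest with GDC-SAR.

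CCNG2, the cyclin G2 gene, read 10.6, 10.9 and 13.1 TPM with DMSO. The 6 GDC-0810 libraries ran from 14.5 through a median of 19.5 to 24.3 TPM, and the 6 AZD9496 libraries from 18.7 through 20.6 to 26.1. These levels lay above every DMSO library and overlapped each other. Fulvestrant gave 26.5 to 34.0 TPM (median 31.8), SAR439859 27.6 to 37.5 (30.6), GDC-SAR 22.8 to 33.7 (31.4) and AZD-SAR 23.4 to 31.5 (27.6). All fulvestrant and SAR439859 libraries were above all GDC-0810 and AZD9496 libraries, while the hybrids overlapped both. Against DMSO, CCNG2 was 0.64 log2 units higher with 300 nM GDC-0810 and 0.84 with AZD9496, beside 1.43 with fulvestrant, 1.38 with SAR439859, 1.09 with GDC-SAR and 1.13 with AZD-SAR (SE 0.157). It had the smallest difference from DMSO of the 5 genes with fulvestrant at each dose.

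TP53INP1, the p53-linked stress gene, lies on the minus strand of chromosome 8 from 94925972 to 94949411 (GRCh38). It read 27.3, 28.9 and 31.2 TPM with DMSO. It ran from 42.2 through a median of 48.2 to 54.8 TPM with GDC-0810, and from 58.4 through 63.7 to 70.4 with AZD9496. The 6 libraries of each of these ligands did not overlap. With the hybrids it ran from 74.8 to 91.4 TPM (GDC-SAR, median 85.2) and from 74.2 to 91.7 (AZD-SAR, median 85.0). With fulvestrant it ran from 89.5 to 109.7 TPM (median 101.3) and with SAR439859 from 92.7 to 130.9 (median 97.8), where the highest value was the library that listed the fewest genes. The order from the top was therefore SAR439859 and fulvestrant, the hybrids, AZD9496 and GDC-0810, and the neighbours that passed the test of their difference were the hybrids over AZD9496 and AZD9496 over GDC-0810. At 300 nM the difference from DMSO was 0.75 with GDC-0810 and 1.09 with AZD9496, beside 1.49 with AZD-SAR, 1.52 with GDC-SAR, 1.73 with SAR439859 and 1.74 with fulvestrant (SE 0.121).

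BLNK, the adaptor gene, read 9.14, 9.95 and 11.3 TPM with DMSO. GDC-0810 gave 19.5 to 27.2 TPM (median 24.0) and AZD9496 gave 18.8 to 25.5 (median 22.7). Every one of those 12 libraries was above DMSO and below every library of the other 4 ligands. Those ligands gave 34.9 to 48.4 TPM (fulvestrant, median 38.7), 30.0 to 53.3 (SAR439859, 47.0), 34.9 to 44.0 (GDC-SAR, 40.5) and 38.1 to 53.1 (AZD-SAR, 41.2). At 300 nM BLNK was 1.16 log2 units above DMSO with GDC-0810 and 1.01 with AZD9496, beside 1.83 with fulvestrant, 1.997 with SAR439859, 1.86 with GDC-SAR and 2.01 with AZD-SAR (SE 0.183). The B-cell receptor genes CD79A and CD79B reached at most 2.12 and 4.57 TPM in any library, and CD22 averaged 2.74 TPM with DMSO and 1.04 with ligands.

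PPFIBP2, the liprin-beta-2 gene, read 21.3, 16.0 and 33.9 TPM with DMSO, a wider spread than the 3 genes above. At 30 nM GDC-0810 gave 30.5, 33.3 and 43.1 TPM, which overlaps DMSO. At 300 nM GDC-0810 gave 37.8, 39.9 and 51.0 TPM, all above DMSO. AZD9496 gave 51.2 to 75.7 TPM over both doses (median 63.7), above every GDC-0810 library. Fulvestrant gave 100.8 to 135.2 TPM (median 111.9), AZD-SAR 79.6 to 130.1 (105.8), GDC-SAR 77.5 to 107.8 (101.4) and SAR439859 64.0 to 151.7 (105.6). Only SAR439859 among these 4 ligands overlapped AZD9496. The difference from DMSO at 300 nM was 0.88 log2 units with GDC-0810, or 40.0% of that with fulvestrant (2.20), and 26.3% at 30 nM. These were the lowest shares of the fulvestrant difference that GDC-0810 gave among the 5 genes at each dose.

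RTN2, the reticulon gene, had the highest mean TPM of the 5 in every group. It read 84.6, 49.96 and 44.9 TPM with DMSO, so that replicate 1 stood above the other DMSO libraries. GDC-SAR gave 276 to 394 TPM (median 340.6) and AZD-SAR 235 to 326 (276). SAR439859 gave 118 to 296 TPM (259), fulvestrant 151 to 299 (215), GDC-0810 162 to 229.8 (196) and AZD9496 108 to 249 (174). All ligand libraries were above DMSO, and the 4 ligands below the hybrids overlapped one another. With GDC-0810 RTN2 reached 83.3% and 98.6% of its fulvestrant difference at 30 and 300 nM, where CCNG2, TP53INP1 and BLNK reached 36.5% to 63.4%. Whether RTN2 departs from the other genes was not tested.

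The next comparison set the 6 ligands against one another in 15 pairs at each dose. At 30 nM 26 of 75 gene-by-pair differences of the 5 genes were called and at 300 nM 25 of 75, where 1.68% and 2.06% of such tests over all genes were called. BLNK had 8 and 7 called pairs, TP53INP1 6 and 8, PPFIBP2 7 and 5, CCNG2 5 and 4, and RTN2 0 and 1. For RTN2 the call was 300 nM GDC-SAR over AZD9496. For CCNG2, TP53INP1, BLNK and PPFIBP2, the calls were 26 of the 32 at 30 nM, and 24 of the 32 at 300 nM, that set GDC-0810 or AZD9496 against another ligand. None of the other 28 passed at either dose. Calls at a single dose rest on the spread shared by all groups: with only the libraries compared in the model, calls at 300 nM fell to 0 for all 5 genes, and 4 of the 51 calls at a single dose held in every setting tried. Averages over both doses, 6 libraries a ligand, held 33 of 37 calls and are used below. The model takes these 6 libraries as independent, which was not tested. In library order BLNK with SAR439859 read 45.4, 53.3 and 30.0 TPM at 30 nM and 48.7, 52.7 and 31.4 at 300 nM. CCNG2 with AZD9496 showed no such match (18.7, 19.3 and 26.1, then 23.2, 21.1 and 20.1). If libraries of the 2 doses are related, intervals of the averages may be too narrow and leaving out 1 library keeps its partner.

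Fulvestrant and SAR439859 were not distinguishable for these genes. Their difference was -0.02 for CCNG2 (95% interval -0.24 to 0.21), -0.04 for TP53INP1 (-0.21 to 0.14), -0.10 for BLNK (-0.37 to 0.16), 0.16 for PPFIBP2 (-0.16 to 0.47) and -0.02 for RTN2 (-0.43 to 0.38). By limma 0 of 5 passed, also at an unadjusted p of 0.05, and 0.00694% of all genes were called. Without SAR439859 30 nM replicate 3 the values were -0.0029, 0.03, -0.22, 0.06 and -0.21 in the same order, and none passed. GDC-SAR and AZD-SAR, which differ in the scaffold, gave 0 of 5 as well (0% of all genes by limma, and 0 of 5 at an unadjusted p of 0.05). Their interval was -0.16 to 0.30 for CCNG2, -0.19 to 0.16 for TP53INP1, -0.36 to 0.17 for BLNK, -0.45 to 0.18 for PPFIBP2 and -0.17 to 0.64 for RTN2.

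Set against fulvestrant, the hybrids gave 0 called genes of 5 each, where 0.00694% (GDC-SAR) and 0% (AZD-SAR) of all genes were called by limma. At an unadjusted p of 0.05, TP53INP1 was lower with both hybrids and RTN2 higher with GDC-SAR. TP53INP1 was 0.27 log2 units higher with fulvestrant than with GDC-SAR (interval 0.09 to 0.44, adjusted p = 0.231) and 0.26 higher than with AZD-SAR (0.08 to 0.43, adjusted p = 0.302). Set against SAR439859, whose side chain they carry, the hybrids also gave 0 of 5 each, where 0.354% (GDC-SAR) and 0.0555% (AZD-SAR) were called. Here TP53INP1 was 0.30 higher with SAR439859 than with GDC-SAR (interval 0.13 to 0.48, adjusted p = 0.105) and the libraries did not overlap. Without SAR439859 30 nM replicate 3 that difference was 0.24 (adjusted p = 0.258), and without SAR439859 30 nM replicate 2 it was 0.35 (adjusted p = 0.0354). RTN2 was 0.57 higher with GDC-SAR than with fulvestrant (0.16 to 0.97, adjusted p = 0.261) and 0.55 higher than with SAR439859 (0.14 to 0.95, adjusted p = 0.220). SAR439859 minus GDC-SAR was 0.11 for CCNG2, 0.09 for BLNK and 0.10 for PPFIBP2. Without SAR439859 30 nM replicate 3 it was -0.35 for RTN2, 0.09 for CCNG2, 0.21 for BLNK and 0.20 for PPFIBP2. SAR439859 minus AZD-SAR was 0.18 for CCNG2, 0.29 for TP53INP1 (adjusted p = 0.160), -0.0021 for BLNK, -0.04 for PPFIBP2 and -0.31 for RTN2. For TP53INP1 this pair's libraries did not overlap either (lowest 92.7 TPM with SAR439859, highest 91.7 with AZD-SAR). Leaving out SAR439859 30 nM replicate 3 gave 0.17, 0.22, 0.11, 0.06 and -0.12 in the same order. None of these differences passed.

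GDC-0810 left 4 of the 5 genes lower than fulvestrant did, where 8.23% of all genes were called, and the same count lower than SAR439859 did, where 9.24% were called. Shares of all genes given beside ligand pairs, here and below, count calls in either direction. Fulvestrant exceeded GDC-0810 by 0.70 for CCNG2, 1.06 for TP53INP1, 0.73 for BLNK and 1.53 for PPFIBP2 (SE 0.111, 0.0858, 0.129 and 0.153). For RTN2 the difference was 0.19 (interval -0.21 to 0.60, adjusted p = 0.599). SAR439859 exceeded GDC-0810 by 0.71, 1.10, 0.83 and 1.37 for those 4 genes, and by 0.70, 1.03, 0.95 and 1.47 without SAR439859 30 nM replicate 3, all called. For RTN2 it exceeded GDC-0810 by 0.22 (adjusted p = 0.549), and by 0.41 without that library (adjusted p = 0.188).

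AZD9496 likewise left 4 of the 5 genes lower than fulvestrant (7.1% of all genes called) and than SAR439859 (15.6%). Fulvestrant exceeded AZD9496 by 0.52 for CCNG2, 0.64 for TP53INP1, 0.80 for BLNK and 0.83 for PPFIBP2, and SAR439859 exceeded it by 0.54, 0.67, 0.90 and 0.67. Without SAR439859 30 nM replicate 3 the SAR439859 values were 0.53, 0.60, 1.02 and 0.77, all called. RTN2 differed by 0.42 and 0.44 (adjusted p = 0.220 and 0.127). The second value passed without SAR439859 30 nM replicate 3 (0.63, adjusted p = 0.0202) and with median-of-ratios scaling (0.55, adjusted p = 0.0451). Without AZD9496 300 nM replicate 1 both passed, at 0.61 (adjusted p = 0.0463) and 0.63 (adjusted p = 0.0213).

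GDC-0810 and AZD9496 differed from each other for 2 of the 5 genes, where 16.4% of all genes were called. With AZD9496, TP53INP1 was 0.42 higher (interval 0.25 to 0.60, adjusted p = 0.00271) and PPFIBP2 0.70 higher (0.38 to 1.01, adjusted p = 0.00378). The intervals for AZD9496 minus GDC-0810 were -0.06 to 0.40 for CCNG2, -0.33 to 0.19 for BLNK and -0.63 to 0.18 for RTN2. Median-of-ratios scaling moved the median of all genes by 0.13 in this pair, and with it the TP53INP1 difference became 0.26 and missed the threshold (adjusted p = 0.0508).

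**Figure D2:**
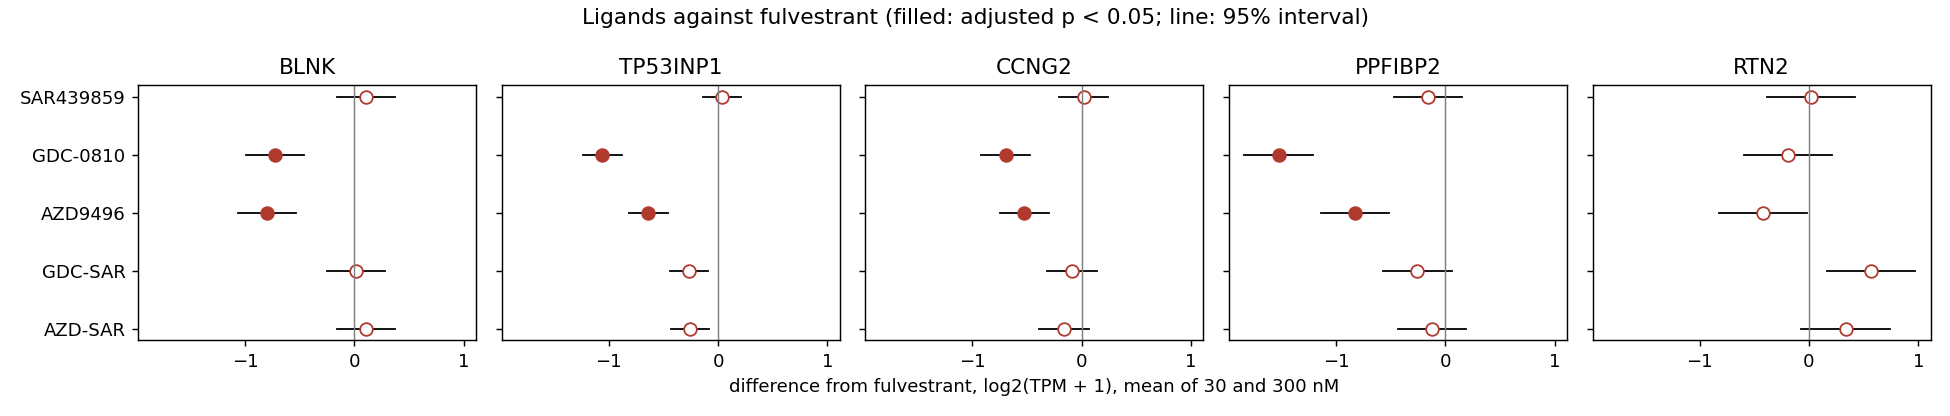
Difference of each ligand from fulvestrant in log2(TPM + 1), averaged over 30 and 300 nM (horizontal axis), with 95% intervals; filled points passed the test. GDC-0810 and AZD9496 lie left of 0 for BLNK, TP53INP1, CCNG2 and PPFIBP2, farthest for PPFIBP2 with GDC-0810 (-1.53), and no point is filled for RTN2.

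The hybrids allow the side chain to be exchanged on a fixed scaffold. On both scaffolds all 5 genes were higher with the SAR439859 side chain. On the GDC-0810 scaffold (3.68% of all genes called), CCNG2 was higher by 0.60, TP53INP1 by 0.79, BLNK by 0.74, PPFIBP2 by 1.27 and RTN2 by 0.76. On the AZD9496 scaffold (15% called), the same genes were higher by 0.36, 0.38, 0.90, 0.71 and 0.76. Of these, RTN2 on the GDC-0810 scaffold (adjusted p = 0.0225) was lost in 6 of 16 settings (up to 0.0797), and CCNG2 on the AZD9496 scaffold (adjusted p = 0.0275) in 8 of 16 (up to 0.0735).

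The 300 nM libraries show the size of this exchange. PPFIBP2 read 37.8, 39.9 and 51.0 TPM with GDC-0810 and 83.7, 101.7 and 77.5 with GDC-SAR. TP53INP1 read 44.1, 50.3 and 54.8 TPM with GDC-0810 and 74.8, 90.5 and 91.4 with GDC-SAR. BLNK read 25.5, 18.8 and 19.9 TPM with AZD9496 and 40.9, 53.1 and 38.1 with AZD-SAR. In none of these 3 comparisons did the libraries of parent and hybrid overlap. RTN2 read 249, 118 and 108 TPM with AZD9496 and 235, 278 and 275 with AZD-SAR, where a single AZD9496 library lay inside the AZD-SAR range. Dose by dose, the exchange on the GDC-0810 scaffold called 4 of 5 genes at 30 nM (1.28% of all genes) and 2 at 300 nM (1.25%), and on the AZD9496 scaffold 2 at 30 nM (1.68%) and 2 at 300 nM (8.57%).

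**Figure D3:**
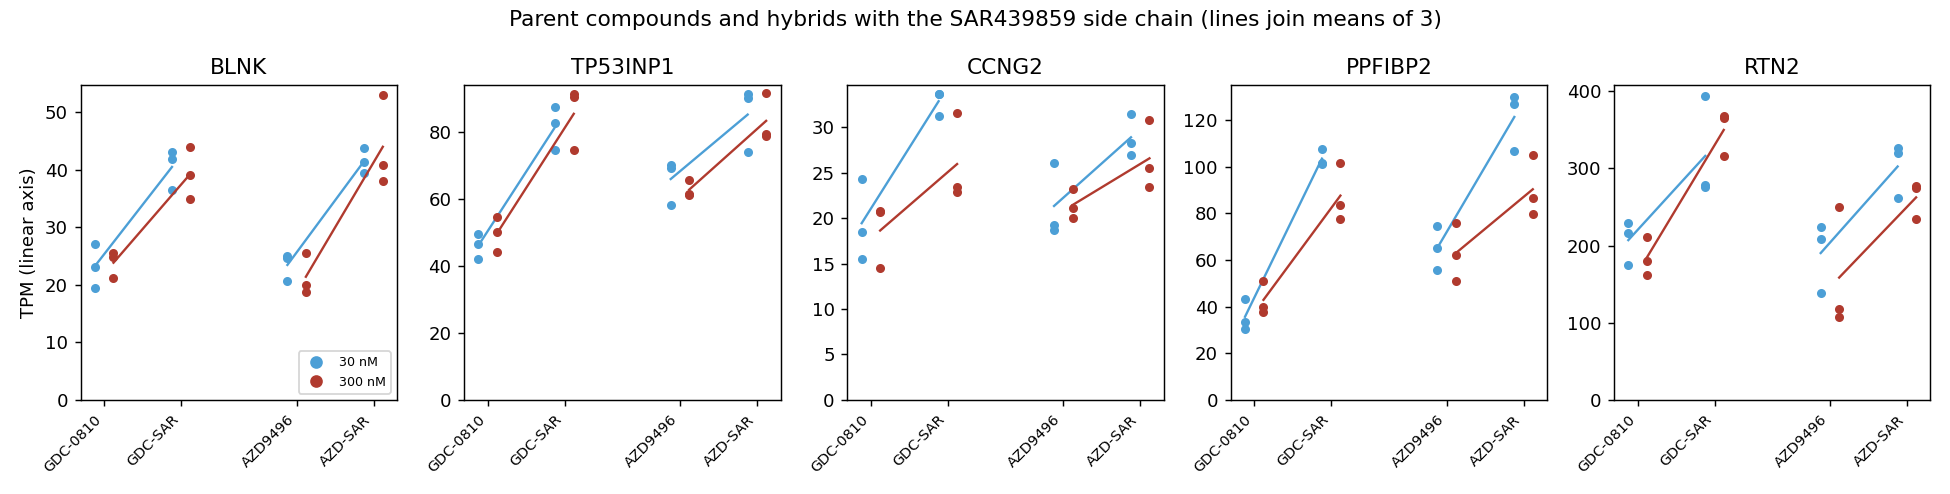
Level in TPM (vertical axes, linear, starting at 0) with each parent compound and its hybrid; points are libraries (blue 30 nM, red 300 nM) and lines join means of 3. Every line slopes upward from parent to hybrid in all 5 genes.

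Each hybrid was also set against the other scaffold's parent. AZD-SAR exceeded GDC-0810 for 4 of 5 genes (4.41% of all genes called), by 0.53 for CCNG2, 0.80 for TP53INP1, 0.83 for BLNK and 1.40 for PPFIBP2, with 0.53 for RTN2 (adjusted p = 0.155). The CCNG2 call was lost with only the libraries compared (adjusted p = 0.0732), and RTN2 passed there (adjusted p = 0.0231). GDC-SAR exceeded AZD9496 for all 5 (17.8% called), by 0.43 for CCNG2, 0.37 for TP53INP1, 0.81 for BLNK, 0.57 for PPFIBP2 and 0.99 for RTN2. Median-of-ratios scaling moved the median of all genes by -0.12 in AZD9496 minus GDC-SAR, and the 5 calls held.

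Whether the side chain difference depended on the scaffold was tested as an interaction at each dose, and no gene of the 5 passed in limma, where 0.00347% of tests over all genes did. The lowest unadjusted p was for TP53INP1 at 30 nM, whose side chain difference was 0.45 smaller on the AZD9496 scaffold (interval -0.80 to -0.10, unadjusted p = 0.0143, adjusted p = 0.891). At 300 nM the TP53INP1 value was -0.37 (adjusted p = 0.309). PPFIBP2 gave -0.64 and -0.49 (adjusted p = 0.891 and 0.441). TP53INP1 at both doses and PPFIBP2 at 30 nM were below an unadjusted p of 0.05.

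Raising the dose from 30 to 300 nM gave no call for the 5 genes. Of 30 gene-by-ligand differences 0 passed in limma, 1 was below an unadjusted p of 0.05, and 0% of such tests over all genes were called. That one was CCNG2 with GDC-SAR, at 31.2, 33.7 and 33.6 TPM at 30 nM and 22.8, 23.5 and 31.5 TPM at 300 nM (log2 -0.34, interval -0.66 to -0.02). The differences ran from -0.51 (RTN2 with fulvestrant, interval -1.08 to 0.06) to 0.34 (RTN2 with SAR439859, -0.23 to 0.91). For BLNK and TP53INP1 they stayed between -0.13 and 0.10.

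Other genes described as lowered by estrogen were read from a list of 20, of which 18 were measured. At 300 nM against DMSO 10 were higher with fulvestrant (11.1% of all genes), 10 with SAR439859 (11.2%), 9 with GDC-SAR (9.76%), 9 with AZD-SAR (12.7%), 5 with AZD9496 (3.71%) and 3 with GDC-0810 (6.99%). The list's median difference was 0.67, 0.65, 0.54, 0.51, 0.43 and 0.14 in that order, beside 0.09, 0.03, 0.03, 0.03, 0.10 and 0.00 for all genes. With each ligand 1 list gene was lower, HES1, where 8.12% (fulvestrant), 12.8% (SAR439859), 10.5% (GDC-SAR), 12.8% (AZD-SAR), 2.21% (AZD9496) and 9.04% (GDC-0810) of all genes were lower. The GDC-0810 count was 1 without GDC-0810 300 nM replicate 3 or DMSO replicate 2, and 5 with median-of-ratios scaling. The ligands share the 3 DMSO libraries.

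BCAS1, a gene amplified in some breast cancers, was likewise lowest with GDC-0810 and AZD9496 among the ligands. It averaged 48.0 ± 4.82 TPM with DMSO (SD, n = 3). At 300 nM it averaged 61.6 ± 1.37 with GDC-0810 and 75.4 ± 5.22 with AZD9496. The other 4 ligands gave 100.8 ± 4.86 (GDC-SAR), 101.8 ± 4.83 (fulvestrant), 109.97 ± 16.8 (AZD-SAR) and 113.5 ± 5.69 (SAR439859). Its F test among ligands had an adjusted p of 2.3e-04 at 30 nM and 5.6e-06 at 300 nM. PIK3IP1, an inhibitor of PI3 kinase, was higher with fulvestrant, SAR439859 and both hybrids by 0.98 to 1.24. With GDC-0810 and AZD9496 its values were 0.40 and 0.49 (adjusted p = 0.162 and 0.158). ERBB2, the HER2 receptor gene, was higher by 0.80 to 1.33 with 5 ligands and stood at 0.54 with GDC-0810 (adjusted p = 0.0572). The F test among ligands had an adjusted p of 0.178 at 30 nM and 0.0109 at 300 nM for PIK3IP1. For ERBB2 it was 0.0948 and 0.0982, so a ligand difference was not called there. Of the 18 list genes, 2 passed the F test at 30 nM and 4 at 300 nM, where 5.11% and 4.91% of all genes did. HES1, a Notch-responsive repressor gene, averaged 56.9 ± 5.71 TPM with DMSO and fell with all 6 ligands, from -0.86 with AZD9496 to -1.57 with AZD-SAR. The call with AZD9496 was lost without AZD9496 300 nM replicate 1 or DMSO replicate 3.

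**Figure D4:**
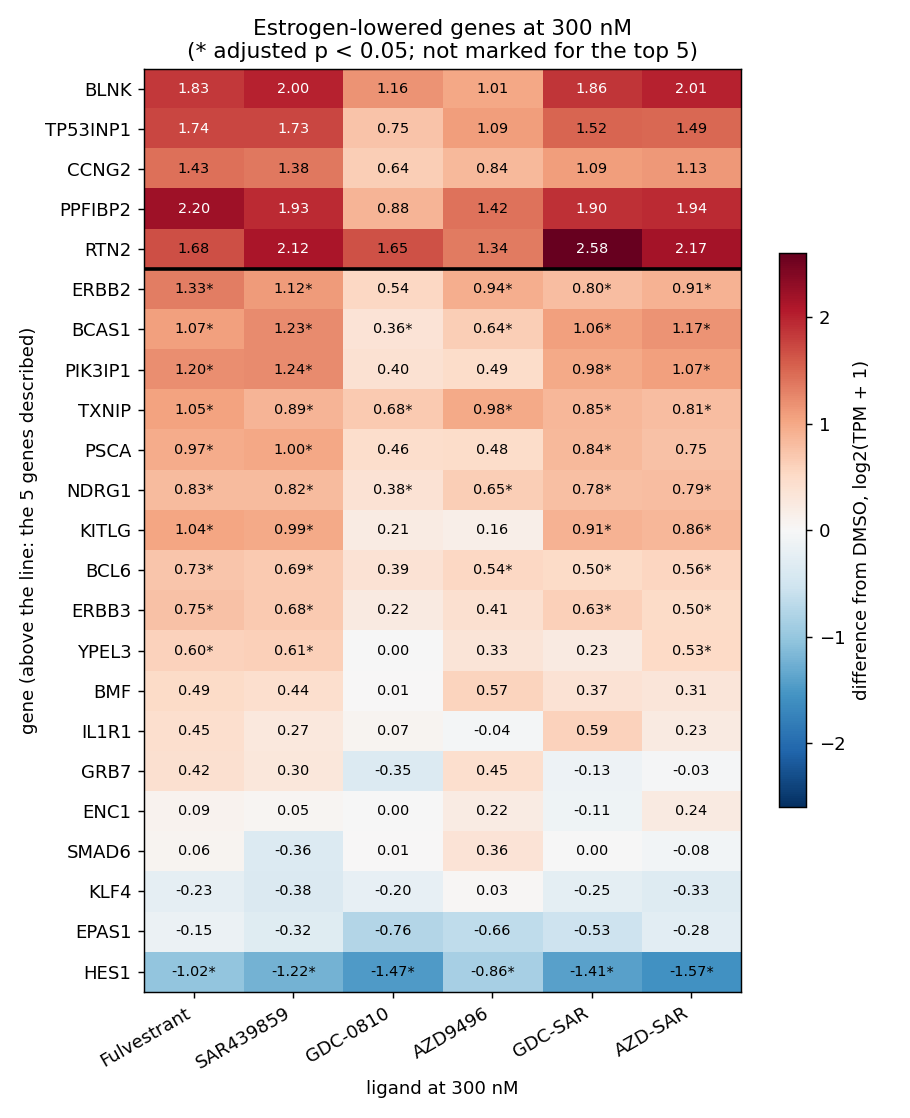
Difference from DMSO at 300 nM in log2(TPM + 1) for the 5 genes (above the line) and 18 listed estrogen-lowered genes, by ligand; asterisks mark listed genes that passed the test, and the 5 genes are unmarked because they were chosen on this difference. The GDC-0810 column holds 3 asterisks among higher genes and HES1 is below 0 throughout.

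Genes of quiescence and FOXO signalling were examined because CCNG2 is a known FOXO target. Of 20 measured, 10 were higher at 300 nM with fulvestrant (11.1% of all genes), 10 with SAR439859 (11.2%), 10 with GDC-SAR (9.76%), 9 with AZD-SAR (12.7%), 2 with AZD9496 (3.71%) and 3 with GDC-0810 (6.99%). The list's medians were 0.58, 0.62, 0.52, 0.56, 0.35 and 0.29 in that order, beside 0.09, 0.03, 0.03, 0.03, 0.10 and 0.00 for all genes. With AZD9496 0 were lower (2.21% of all genes), with GDC-0810 1 (9.04%), and with each other ligand 2 (8.12% to 12.8%). The list shares TXNIP, PIK3IP1 and BCL6 with the estrogen-lowered list. RBL2, a pocket protein gene, was higher by 0.99 to 1.45 with 5 ligands and read 0.84 with AZD9496 (adjusted p = 0.0533). TXNIP, a redox and glucose regulator, was higher with all 6 (0.68 to 1.05). The F test among ligands called neither, with adjusted p of 0.919 and 0.432 for RBL2 at 30 and 300 nM, and 0.623 and 0.364 for TXNIP. It called 2 of the 20 list genes at each dose, where 5.11% and 4.91% of all genes were called. CDKN1A, the gene for the cell cycle inhibitor p21, moved the other way. It averaged 11.9 ± 0.957 TPM with DMSO and fell with 5 ligands, from -0.80 with GDC-0810 to -1.41 with GDC-SAR, and its value with AZD9496 was -0.15 (adjusted p = 0.751).

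p53 target genes were read beside TP53INP1. Of 14 measured, 0 to 2 were higher and 0 to 3 lower with each ligand at 300 nM, where 3.71% to 12.7% of all genes were higher and 2.21% to 12.8% lower. The list's medians ran from -0.14 to 0.12, beside 0.00 to 0.10 for all genes. SESN1, a stress-induced sestrin gene, was higher with 5 ligands (mean over ligands 0.81), and AEN, a nuclease gene, was lower with 4 (mean -1.02). CDKN1A, described above, is also on this list and was lower with 5 (mean -0.99). CDKN1A and SESN1 are on the FOXO and quiescence list as well. TP53INP2, the paralog of TP53INP1 and an autophagy factor, was higher with all 6, from 3.92 ± 0.324 TPM with DMSO to 6.63 ± 0.944 with 300 nM GDC-0810 and 11.6 ± 1.03 with SAR439859. Averaged over both doses it was 0.59 higher with fulvestrant than with GDC-0810 (adjusted p = 0.0114) and 0.21 higher than with AZD9496 (adjusted p = 0.464). Of the 9 measured relatives and autophagy partners of TP53INP1, 1 to 4 were higher with each ligand and up to 1 lower, beside the same shares of all genes, and the medians ran from 0.20 to 0.35. SQSTM1, the autophagy receptor p62, was higher with 5 ligands (mean 0.69), and VMP1, an autophagosome formation gene, was lower with 5 (mean -0.55).

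Relatives and partners of the other genes were read in the same way, at 300 nM against DMSO, where 3.71% to 12.7% of all genes were higher and 2.21% to 12.8% lower with medians of 0.00 to 0.10. Among 9 relatives and partners of CCNG2, 0 to 3 were higher and up to 1 lower with each ligand (medians -0.09 to 0.17). CCNG1, the paralog, was higher with 4 ligands (mean 0.78) and CCNI, a related cyclin, with 5 (mean 0.68). Among 11 measured BLNK signalling partners, up to 1 was higher and up to 3 lower (medians -0.39 to 0.20). CD2AP, an actin-linked adaptor, was higher with 5 ligands (mean 0.66) and VAV3, an exchange factor, lower with 5 (mean -0.44). Among 6 liprin relatives and partners of PPFIBP2, up to 1 was higher and up to 2 lower (medians -0.18 to 0.09), and PPFIBP1, the paralog, was higher with 1 ligand (0.36 to 0.86 over ligands).

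RTN2 was read beside 10 measured genes of its family and of endoplasmic reticulum shaping, of which 0 to 2 were higher and 0 to 2 lower with each ligand at 300 nM. Of all genes 3.71% to 12.7% were higher and 2.21% to 12.8% lower, and the medians were -0.11 to 0.13 for the list and 0.00 to 0.10 for all genes. RTN4 was called with none of the 6 ligands (limma, -0.32 to -0.11), and RTN3 was higher with 2 (0.16 to 0.37). REEP5, which curves reticulum membranes, averaged 400 ± 33.9 TPM with DMSO and 930.3 ± 210.4 with 300 nM AZD-SAR, 846 ± 141 with GDC-SAR and 460.2 ± 94.0 with AZD9496. It was higher by 0.65 with GDC-SAR than with GDC-0810 (adjusted p = 0.00368) and by 0.83 with AZD-SAR than with AZD9496 (adjusted p = 1.2e-04). REEP6, a relative, was lower with 4 ligands (mean -0.51).

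Each gene shares ground with a gene on the opposite strand, and whether counting used strand is not given in the sources used here. PPM1N, which overlaps most of RTN2, averaged 5.51 TPM with DMSO and 6.24 to 10.1 over the ligand groups. NDUFAF6, opposite TP53INP1, averaged 49.7 TPM with DMSO and 42.0 to 59.5 over the ligand groups. ZNF518A, opposite the end of BLNK, averaged 5.27 TPM with DMSO and 5.32 to 8.92 over the ligand groups. The range of NDUFAF6 over the ligand groups included its DMSO level, and that of ZNF518A and PPM1N lay above it. The part of this overlap in the results was not tested, and the noncoding genes opposite CCNG2 and PPFIBP2 were not analysed here.

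The likeness of the 5 genes was described by Pearson r over the 12 ligand groups' mean log2(TPM + 1), which leaves out the shared step from DMSO. Among BLNK, TP53INP1, CCNG2 and PPFIBP2 it ran from 0.85 (BLNK with PPFIBP2) to 0.95 (TP53INP1 with PPFIBP2). RTN2 had r of 0.72 with BLNK, 0.50 with PPFIBP2, 0.49 with CCNG2 and 0.42 with TP53INP1. The groups share ligands across doses, so they are not independent points, and no p is given.

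The genes whose pattern over the 13 groups was most like each gene were then named. For BLNK these were ABCA12 (r = 0.994), a lipid transporter, LNPEP (0.989), a peptidase, and ACSS3 (0.982), an acyl-CoA synthetase. ABCA12 averaged 46.6 TPM with DMSO, 92.2 with AZD9496, 95.02 with GDC-0810 and 135.9 with fulvestrant over both doses. For TP53INP1 they were IRF2 (0.986), ABCC5 (0.985) and RP11-279F6.1 (0.983), and for CCNG2 HBP1 (0.975), TCEAL1 (0.975) and ABCC5 (0.967). ABCC5, a drug efflux transporter, averaged 65.3 TPM with DMSO, 119 with GDC-0810, 129 with AZD9496 and 228 with fulvestrant. For PPFIBP2 they included DDIT4 (0.981) and HCAR1 (0.975), and for RTN2 they were C19ORF54 (0.960), MRPS14 (0.960) and CEACAM1 (0.953). Over the 12 ligand groups alone, r for these genes stayed between 0.93 and 0.99 for the first 4 genes and fell to between 0.87 and 0.88 for those of RTN2, whose nearest gene there was MAPK8 (0.925).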

How the data were processed

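Total RNA behind the 39 HCC1428-LTED libraries came from a Qiagen extraction that included DNase, and NuGEN protocols gave stranded libraries, per the labels' protocols. Reads were aligned with STAR to GRCh38, per the submitters' processing notes. Which counter, annotation and versions were used was not given in the sources used here. A single table of TPM values was deposited by the authors and used as deposited. Depth is unknown, so precision rests on the spread between libraries. The genes, lists and tests were chosen with earlier results of these data known.

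Groups came from the labels (13 of 3 libraries). Genes with a mean of at least 1 TPM (14404 of 46706) were fitted as log2(TPM + 1) with limma 3.58.1 in R 4.3.3, with 1 mean per group, 26 residual degrees of freedom and empirical Bayes moderation with a trend. P-values were adjusted over all tested genes within a comparison (Benjamini-Hochberg, call below 0.05), not across the 15 ligand pairs, and intervals are 95%. The code was tested on simulated data. Fold changes on this scale understate those of low genes. Named genes were the 5, up to 4 per list with the largest mean difference from DMSO at 300 nM among those called with at least 4 ligands, 5 fixed relatives, and the 3 most alike per gene (mean of at least 5 TPM), of which 1 is not reported here. CD79A, CD79B, CD22 and MAPK8 were named after their values were seen. Alternatives were a pseudocount of 0.1, no expression filter, median-of-ratios scaling, only the libraries compared, leaving out each library, and likeness over the 12 ligand groups.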

Additional observations from a re-analysis of the deposited data

How the results depend on the processing

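No paired analysis was possible because the labels give no replicate number shared between groups. No ligand difference of BLNK, TP53INP1, CCNG2, PPFIBP2 and RTN2 that passed the test changed sign, and no dose call changed, under any alternative. Some differences near 0 that did not pass changed sign, such as TP53INP1 in fulvestrant minus SAR439859, from -0.04 to 0.03 without SAR439859 30 nM replicate 3. A pseudocount of 0.1 changed no count of called pairs, F test call or ligand difference call. With only the libraries compared, called pairs at 30 nM became 1 for BLNK, 0 for CCNG2, 3 for PPFIBP2 and 1 for TP53INP1, and at 300 nM 0 for each of the 5 genes, and the F test at 300 nM had adjusted p = 0.0709 for CCNG2 and 0.0778 for RTN2; these fits hold fewer samples. Without the expression filter CCNG2 had 3 and 2 called pairs at 30 and 300 nM, and the RTN2 F test at 300 nM had adjusted p = 0.0837. Other calls at 300 nM were lost there as well. They were TP53INP1 in AZD9496 against each hybrid, BLNK in fulvestrant against GDC-0810 and PPFIBP2 in fulvestrant against AZD9496. Median-of-ratios scaling gave RTN2 3 called pairs at 300 nM. At 30 nM it added calls for TP53INP1 (AZD9496 against each hybrid), PPFIBP2 (AZD9496 against GDC-SAR) and CCNG2 (fulvestrant against AZD9496). The CCNG2 call of fulvestrant against GDC-0810 at 30 nM was lost with this scaling. For BLNK at 300 nM, GDC-0810 against GDC-SAR was gained and fulvestrant against GDC-0810 lost. Leaving out each library in turn gave 5 to 8 called pairs for BLNK at 30 nM and 4 to 8 at 300 nM, 2 to 6 and 2 to 4 for CCNG2, 4 to 7 and 3 to 6 for PPFIBP2, and 0 to 3 for RTN2 at 300 nM, whose F test adjusted p ran from 0.00408 to 0.145 (highest without AZD9496 300 nM replicate 2). Over all settings the estrogen-lowered genes called higher at 300 nM numbered 8 to 10 with fulvestrant and SAR439859, 6 to 9 with GDC-SAR, 5 to 10 with AZD-SAR, 4 to 5 with AZD9496 and 1 to 5 with GDC-0810. The FOXO and quiescence count with GDC-SAR fell from 10 to 6 without GDC-SAR 300 nM replicate 2, and that with AZD9496 from 2 to 1 without AZD9496 300 nM replicate 1 or 3 or DMSO replicate 1 or 3. Depth is unknown, so low genes such as PIK3IP1 cannot be given a counting limit.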
